A study of Mus musculus with 6 samples.

Results

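Canonical Wnt mediators and target genes were examined in the comparison of MERVL reporter-positive and reporter-negative mouse embryonic stem cells. The genes were chosen by name, as 10 known parts or targets of the pathway (Ctnnb1, Tcf7l1, Tcf7, Lef1, Axin2, Sp5, Nkd1, Dkk1, Notum and Lgr5). Of these 10 genes, 8 were among the 17110 genes with a row in the authors' deposited table. Dkk1 and Lgr5 had no row there, so no expression value is given for them.

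The study used cells of the line labelled TG2A that carry a fluorescent protein under control of MERVL, a retroviral element of the mouse genome whose transcription peaks in two-cell embryos. All cells were of this 1 line and grew in serum with leukemia inhibitory factor. They were sorted by fluorescence into DsRed2+ and DsRed2- groups with 3 biological replicates each, taken on different dates, and polyadenylated RNA was sequenced. The labels name no other genotype or treatment, and both groups carry the reporter.

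The authors' deposited table gives 1 log2 fold change per gene, with a standard error, and no value per sample. It names neither the groups it compares nor the numerator. That it compares the sorted groups was inferred because the labels hold no other group. The signs below are those of the table and are not assigned to a sorted group. Depth and spread per library were not examined here, and whether 1 library decides a value was not tested. All 6 embryonic stem cell markers examined, such as Zfp42 and Pou5f1, were among the rows, whereas the 18 two-cell markers examined had no row used here, so the reporter state was not checked with them.

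In canonical Wnt signalling, a secreted Wnt protein binds a Frizzled receptor with Lrp5 or Lrp6, and the complex that marks beta-catenin for destruction is held back. Beta-catenin then enters the nucleus and binds the TCF and LEF proteins, which sit on DNA at a short core motif and activate or repress target genes. Several targets encode inhibitors of the pathway itself. In mouse embryonic stem cells, Tcf7l1 acts mainly as a repressor of pluripotency genes, and beta-catenin relieves this repression. Wnt ligands also promote the primitive streak, where mesoderm and endoderm form.

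Promoter sequences are shown because TCF and LEF factors act through this core motif. Promoter windows from RefSeq (GRCm38.p6), each of 250 bases before and 50 bases after a transcript start, were searched on both strands for CTTTGA and CTTTGT. Of the 10 genes, 8 had entries, with 13 windows in all. Of these 13 windows, 4 held a core, a share near the 31.2% of the 32851 windows in the table. Notum and Lgr5 had no entry. The Sp5 window held 5 cores, 4 of them before the start, and only 12 windows of the whole table (0.037%) held 5 or more. One Sp5 core was part of the longer CTTTGAT, which overlaps CTTTGA and was found in 3.73% of windows. A start inside Lef1 had 3 cores, and 1.14% of windows held at least 3. The other 3 Lef1 windows had none. The windows of Dkk1 and Tcf7l1 held 3 and 1, and those of Axin2, Nkd1, Ctnnb1 and Tcf7 none. A match describes the letters only and says nothing of binding. The bases before the start are given for Sp5 (chr2:70474673-70474922, plus strand), for the start inside Lef1 (chr3:131156044-131156293, plus strand) and for T (chr17:8434173-8434422, plus strand), the mesoderm gene Brachyury, which had 1 core and the most negative fold change among the other targets described below. Capitals mark the cores on either strand.
Sp5: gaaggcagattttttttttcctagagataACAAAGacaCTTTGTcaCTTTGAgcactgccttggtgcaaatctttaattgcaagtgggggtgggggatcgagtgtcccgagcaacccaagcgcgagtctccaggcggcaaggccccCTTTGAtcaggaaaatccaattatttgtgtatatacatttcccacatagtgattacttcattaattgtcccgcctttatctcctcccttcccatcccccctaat
Lef1: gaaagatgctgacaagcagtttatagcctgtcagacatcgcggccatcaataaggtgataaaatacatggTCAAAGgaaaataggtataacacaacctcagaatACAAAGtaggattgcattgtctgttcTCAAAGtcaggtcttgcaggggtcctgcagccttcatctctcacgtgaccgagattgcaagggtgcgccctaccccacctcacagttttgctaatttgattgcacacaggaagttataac
T: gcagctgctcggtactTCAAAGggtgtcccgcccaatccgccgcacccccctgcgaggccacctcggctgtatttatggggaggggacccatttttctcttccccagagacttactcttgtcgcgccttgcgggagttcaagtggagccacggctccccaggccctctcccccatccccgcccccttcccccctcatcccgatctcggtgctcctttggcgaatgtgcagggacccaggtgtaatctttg

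Among the 8 genes, Notum was positive and Sp5 and Tcf7 were negative past an adjusted p-value of 0.05 in the authors' deposited table, and the other 5 did not pass. Over all rows of the authors' deposited table, 30.5% passed in either direction, 14.6% as positive and 15.9% as negative. The 3 of 8 genes called (37.5%) are thus a share near that background. The median log2 fold change of the 8 genes in the authors' deposited table was -0.26, against 0.0097 over all rows. The authors' own calls, which also ask for an absolute log2 fold change over 0.5, marked 9.4% of rows as up and 12.1% as down in the authors' deposited table, and they held for Notum and Sp5 only. Of all calls, 47.8% were positive as deposited and 34.7% after centring on the ribosomal protein genes. That centring subtracts 0.093 from each log2 fold change and changed no call among the 8 genes.

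**Figure D1:**
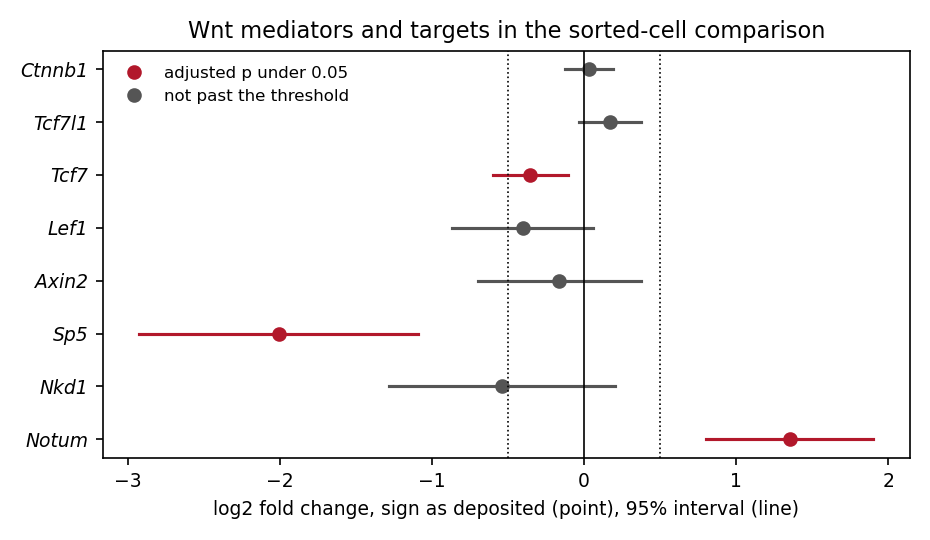
Log2 fold change with its 95% interval for the 8 genes with a row, sign as deposited, where red marks an adjusted p-value under 0.05 and dotted lines mark the authors' limit of 0.5 on either side of 0. Sp5 at -2.01 and Notum at 1.35 lie on opposite sides with intervals beyond the limit, and Tcf7 at -0.35 lies inside it.

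Ctnnb1 encodes beta-catenin, which serves both in this pathway and in cell adhesion. Its mean normalized count over libraries was 26486 in the authors' deposited table, higher than in 99.0% of rows. The log2 fold change of Ctnnb1 was 0.031 ± 0.080 (SE) in the authors' deposited table (adjusted p = 0.823). The 95% interval of this change ran from -0.13 to 0.19, so the ratio between the groups lay between 0.916 and 1.14. Ctnnb1 was thus the most precisely measured of the 8 genes, and no difference in its transcript was detectable. With the fold changes centred on ribosomal protein genes, its value was -0.062, again without a call.

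The TCF and LEF factors bind DNA and carry the signal to the target genes. Divided by the length of the longest annotated transcript, the mean normalized count per kilobase was 1068 for Tcf7, 416.0 for Tcf7l1 and 167.7 for Lef1 in the authors' deposited table. The median row stood at 132.4 on this scale, and the spread of these levels over samples was not examined, so the order is a description. Tcf7 encodes a factor that activates targets when bound by beta-catenin. The log2 fold change of Tcf7 was -0.35 ± 0.13 (SE) in the authors' deposited table (adjusted p = 0.0206), a ratio of 0.783. This is a small difference past the threshold but below the authors' fold-change limit, and it no longer passed at an adjusted p-value of 0.01.

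Tcf7l1, the repressor of the group, had a log2 fold change of 0.17 ± 0.10 (SE) in the authors' deposited table (adjusted p = 0.230). Its 95% interval ran from -0.036 to 0.38. Lef1, an activating factor that is also a target of the pathway, stood at -0.40 ± 0.24 (SE) in the authors' deposited table (adjusted p = 0.203). The interval for Lef1, from -0.87 to 0.062, covers the value of Tcf7, and a difference smaller than 0.58 could not have passed with its standard error. The fourth factor of the family, Tcf7l2, was at -0.044 ± 0.22 (SE) in the authors' deposited table (adjusted p = 0.913). Of the 4 factors, only Tcf7 passed, and whether the factors differ from each other in their change was not tested.

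Of the target genes Sp5, Notum, Axin2 and Nkd1, Sp5 and Notum passed, with opposite signs. Sp5 encodes a zinc-finger transcription factor and is a direct target in many cell types. In the authors' deposited table it had a mean normalized count of 114.8 and a log2 fold change of -2.01 ± 0.47 (SE) (adjusted p = 0.000134). This corresponds to a 4.02-fold lower level in the numerator group, with a ratio between 0.132 and 0.470 at 95% confidence. Only 3.44% of rows were more negative than Sp5 in the authors' deposited table.

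Notum encodes a secreted esterase that removes the lipid from Wnt proteins and so inactivates them. It was opposite in sign to Sp5, with a log2 fold change of 1.35 ± 0.28 (SE) in the authors' deposited table (adjusted p = 1.34e-05). The level was 2.55-fold higher in the numerator group, with a ratio between 1.74 and 3.73. Its mean normalized count was 535.6, and 4.92% of rows were more positive in the authors' deposited table. Both Sp5 and Notum kept their calls when tested against an absolute change of 0.5 in place of 0.

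Axin2 and Nkd1, the other feedback genes among the 8, did not pass. Axin2, a scaffold of the destruction complex that is widely used as a readout of Wnt activity, had a log2 fold change of -0.16 ± 0.27 (SE) in the authors' deposited table (adjusted p = 0.717). Its interval, from -0.70 to 0.37, includes both a lower and a higher level. Nkd1, which binds Dishevelled and dampens the signal, stood at -0.54 ± 0.38 (SE) in the authors' deposited table (adjusted p = 0.307). With a mean normalized count of 54.3, it was the least abundant of the 8 genes, and a change under 0.92 could not have passed. Per kilobase, the mean normalized counts in the authors' deposited table were 242.1 for Notum, 84.2 for Axin2, 54.6 for Sp5 and 13.3 for Nkd1.

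**Figure D2:**
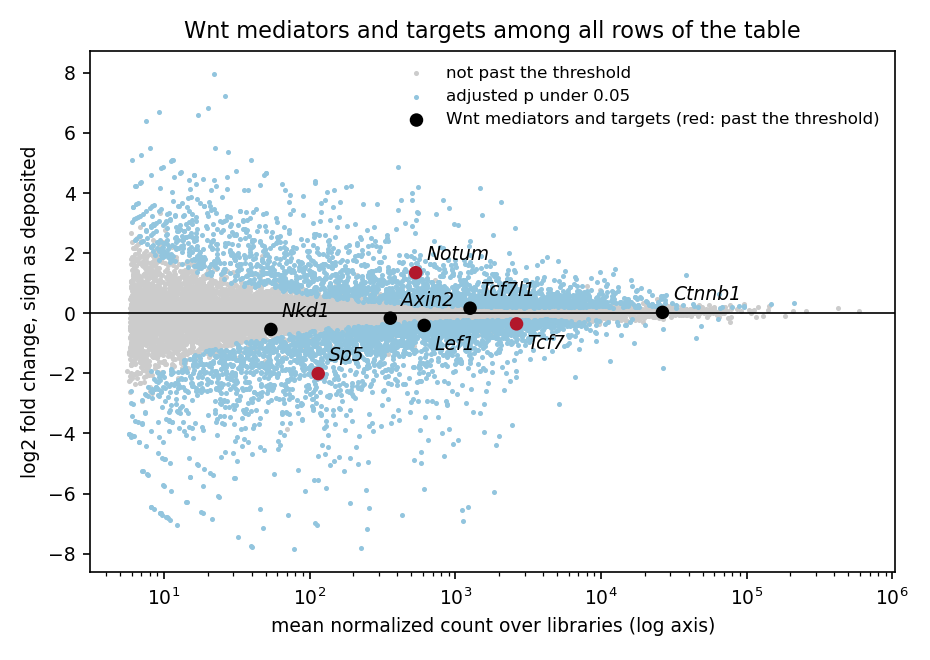
Log2 fold change against mean normalized count (log axis) for all 17110 rows, with the 8 genes labelled and blue marking rows past the threshold. Sp5 and Notum lie in the blue zone below and above 0, and Ctnnb1 lies at the right on the line of 0.

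The standard errors of these genes were compared with those of rows of like count. Against rows whose mean normalized count lay within 1.2-fold, the standard error of Notum was larger than that of 97.3% of rows in the authors' deposited table (0.28 against a median of 0.15). For Sp5 the share was 96.5%, with 0.47 against a median of 0.27. Axin2 and Lef1 exceeded 92.8% and 93.5% of such rows in the authors' deposited table, with 0.27 against 0.17 and 0.24 against 0.14. Ctnnb1 and Tcf7l1 lay below the median of their like rows, at 19.2% and 30.1%, and Nkd1 and Tcf7 lay above it, at 61.0% and 70.7%. The fit therefore gave 4 of the 8 genes, Notum, Sp5, Axin2 and Lef1, a larger error than 90% of rows of like count. Which libraries carry that error is not known from the table.

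**Figure D3:**
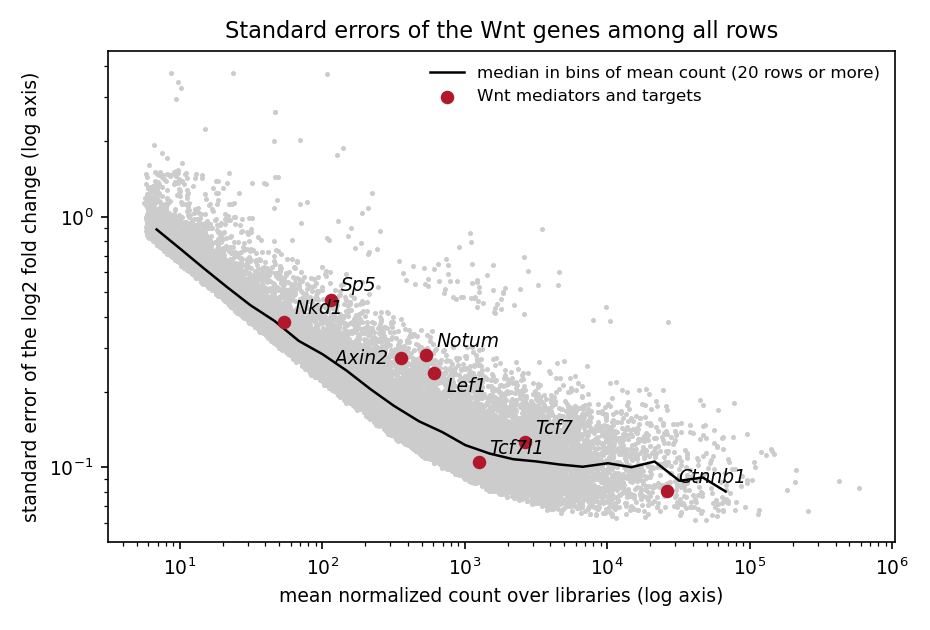
Standard error of the log2 fold change against mean normalized count, both on log axes, for all rows (grey), with the median in bins of count (line) and the 8 genes (red). Sp5, Notum, Axin2 and Lef1 stand above the line, and Ctnnb1 and Tcf7l1 lie below it.

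The wider pathway was described by 7 lists drawn up by role. Earlier results of these data were known when they were made, so their counts are descriptions. Wnt ligands, with Wls and Porcn, had the median farthest from 0 of the 7 lists. Of 12 ligand genes with a row, all were negative and 9 were called negative in the authors' deposited table. The share of negative calls over all rows was 15.9%. Of the 19 ligands listed, 7 had no row, and 6 of the 12 had a mean normalized count under 50. The list's median log2 fold change was -2.56. Wnt3, which is needed for the primitive streak, stood at -5.87 ± 0.74 (SE) in the authors' deposited table (adjusted p = 1e-13). Wnt8a, another ligand of the streak, stood at -4.79 ± 0.42 (SE) in the authors' deposited table (adjusted p = 9.53e-28). Outside the naming rule, Wnt7b stood at -2.74 ± 0.37 and Wnt5a at -2.69 ± 0.63 (SE) in the authors' deposited table, both chosen after their values were seen.

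Release of Wnt proteins needs Porcn, which attaches the lipid, and Wls, which carries the protein to the surface. Wls was at -3.06 ± 0.38 (SE) in the authors' deposited table (adjusted p = 2.69e-14), whereas Porcn was at 0.014 ± 0.20 (SE) (adjusted p = 0.971). With Porcn and Wls, 10 of 14 genes of this list (71.4%) were called negative in the authors' deposited table. The share over all rows was 15.9%. Mean normalized counts in the list were low, between 7.11 and 463.6, and 6 of the 14 were under 50, so large fold changes depend on the authors' fit and were not checked per library.

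Streak, epiblast, trophectoderm and fibroblast markers were mostly called negative in the authors' deposited table, where 15.9% of rows were so called. Primitive endoderm markers, most of them with low counts, mostly did not pass. All 4 primitive streak markers with a row were called negative in the authors' deposited table. The list's median log2 fold change was -4.18, and 2 of the 6 listed had no row. Fgf8 and T led this list at -5.54 ± 0.60 and -6.56 ± 0.79 (SE) in the authors' deposited table. Of 6 formative and primed epiblast markers, 5 were called negative, led by Pou3f1 at -2.66 ± 0.18 and Fgf5 at -7.17 ± 0.53 (SE) in the authors' deposited table. Sox3 at -1.66, Otx2 at -0.56 (adjusted p = 0.0476) and Dnmt3b at -0.40 were the other calls, the last below the authors' fold-change limit. Dnmt3a, at 0.098, did not pass (adjusted p = 0.641). Dnmt3b and Dnmt3a had the highest mean normalized counts of this list, 14616 and 4119. Of 6 trophectoderm markers with a row, 4 were called negative in the authors' deposited table, with Krt8 at -4.39 ± 0.52 and Krt18 at -3.96 ± 0.51 (SE). Cdx2 and Eomes were the other calls. Gata3 at -1.66 (adjusted p = 0.157) and Tfap2c at -0.61 (adjusted p = 0.0635) did not pass, and Elf5 had no row. Eomes, at -2.22, stands in both the streak and the trophectoderm count. Fibroblast markers were called negative in 4 of 6 genes, with Twist1 at -2.54 ± 0.35 and Fbn1 at -1.43 ± 0.22 (SE) in the authors' deposited table. Col1a1 and Col1a2, the other calls, had mean normalized counts of only 20.9 and 10.1. Thy1 at 0.34 (adjusted p = 0.612) and Pdgfrb at -0.54 (adjusted p = 0.290) did not pass, while Col3a1, Dcn, Lum and Postn had no row. Of 5 primitive endoderm markers, only Dab2 passed, at -2.18 ± 0.28 (SE) in the authors' deposited table, and Gata6 stood at -1.37 ± 0.81 (SE) (adjusted p = 0.207). Dab2 had a mean normalized count of 147.7. The other 4 had counts under 50, from 9.05 for Gata6 to 14.7 for Gata4, where only large changes could have passed. Whether this list differs from the other marker lists was not tested. Embryonic stem cell markers were called positive in 4 of 6 genes, with Zfp42 at 1.10 ± 0.092 and Esrrb at 0.91 ± 0.13 (SE) in the authors' deposited table. Over all rows, 14.6% were called positive. Esrrb and Nanog, among these 4, also stand in the count of genes repressed by Tcf7l1 below. In bulk RNA, fewer cells of a type and less RNA per cell cannot be told apart, and the part of these cell types in the ligand and target values was not tested.

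R-spondin and receptor genes were negative in 17 of 20 rows of the authors' deposited table, with a median closer to 0 than that of the ligands. In the authors' deposited table, 10 of 20 R-spondin and receptor genes were called negative and 1 positive, with a median log2 fold change of -0.45. Among all rows 15.9% were negative calls and 14.6% positive ones. Among the 10 Frizzled genes, 6 were called negative, led under the naming rule by Fzd6 at -1.45, Fzd2 at -1.01 and Fzd3 at -0.95, with standard errors of 0.24, 0.15 and 0.16 in the authors' deposited table. Outside that rule, Fzd1 was more negative, at -1.95 ± 0.37 (SE) on a mean normalized count of 41.8. Fzd7, on a count of 2892, was called at -0.43 ± 0.12 (SE). Fzd1 and Fzd7 were named after their values were seen. Fzd5 was the positive call, at 0.59 ± 0.13 (SE) in the authors' deposited table (adjusted p = 6.33e-05). The co-receptor Lrp6 was at -0.28 (adjusted p = 0.0295) and Lrp5 at -0.31 (adjusted p = 0.0582) in the authors' deposited table. Lgr4, the R-spondin receptor related to Lgr5, was at -0.29 ± 0.092 (SE) in the authors' deposited table (adjusted p = 0.00773). Lrp6, Lrp5 and Lgr4 were chosen after their values were seen. Rspo3, a secreted enhancer of the pathway, had the most negative value of the list, -5.19 ± 1.17 (SE) on a mean normalized count of 18.7 in the authors' deposited table. It too was named after its value was seen. With the authors' limit of 0.5, the negative calls in this list dropped from 10 to 6.

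Inhibitors outside the cell and at its surface were split. Of 10 with a row, 2 were called positive and 3 negative in the authors' deposited table, where 14.6% and 15.9% of rows were so called. At a mean normalized count of at least 50, 1 of the 3 negative calls was left. The list's median log2 fold change was -0.050. Sfrp4 and Sfrp1, secreted proteins that bind Wnt, were positive at 1.10 and 0.71, and the related Sfrp2 was negative at -0.77, with standard errors of 0.28, 0.23 and 0.16 in the authors' deposited table. Rnf43, a surface ubiquitin ligase that removes Frizzled, was negative at -1.95 ± 0.54 (SE) on a mean normalized count of 33.7, while its partner Znrf3 was at 0.080 on 556.4 (adjusted p = 0.677) in the authors' deposited table. Rnf43 and Znrf3 were chosen after their values were seen.

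Intracellular parts of the pathway had medians near 0. Of 16 genes for the destruction complex and Dishevelled, 5 (31.2%) were called negative and 0 positive in the authors' deposited table. Among all rows 15.9% were called negative and 14.6% positive. The share called in either direction, 31.2%, was near the 30.5% of all rows. The list's median log2 fold change was -0.081. The kinase gene Gsk3b stood at -0.42 ± 0.091 (SE) in the authors' deposited table (adjusted p = 3.57e-05). Dvl3, 1 of 3 Dishevelled genes, stood at -0.29 ± 0.12 and Apc2 at -1.01 ± 0.34 (SE) in the authors' deposited table, the latter on a mean normalized count of 55.6. With the authors' limit of 0.5, 1 of these 5 calls, Apc2, was left. Among 14 nuclear partners of beta-catenin, 2 were called negative and 1 positive (21.4%) in the authors' deposited table, below the 30.5% of rows called in either direction. These were the co-activator Bcl9l at -0.59, the co-repressor Ctbp1 at -0.25 and the Groucho-type co-repressor Tle4 at 0.32, with standard errors of 0.21, 0.085 and 0.12 in the authors' deposited table. The call of Tle4 was lost after centring on the ribosomal protein genes, at 0.23 (adjusted p = 0.161).

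**Figure D4:**
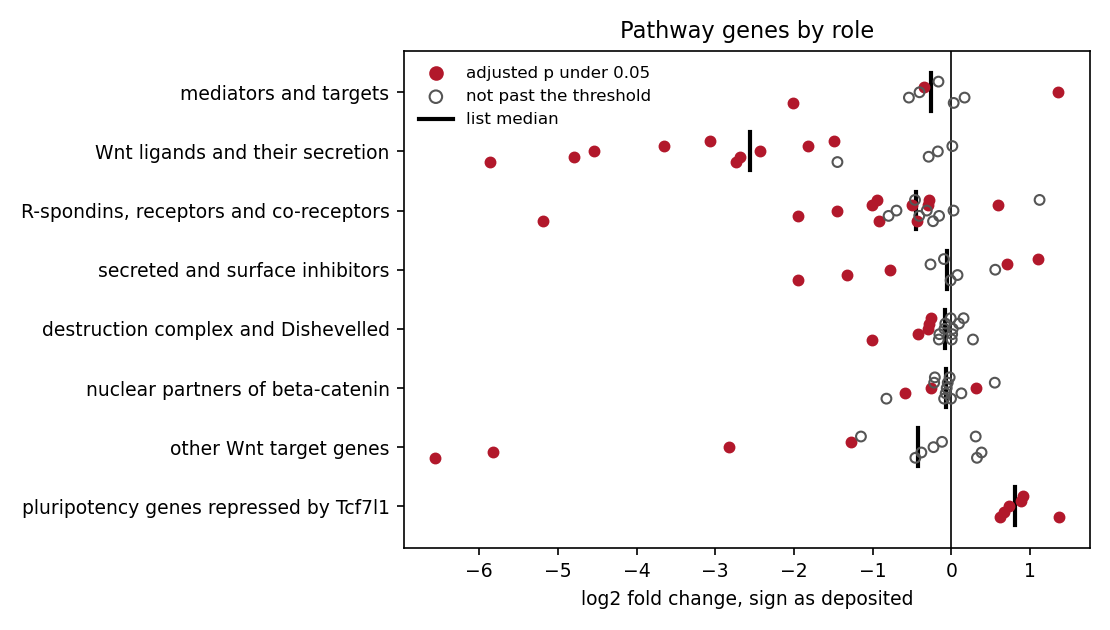
Log2 fold change, sign as deposited, of each pathway gene with a row, grouped by role, with filled red points past the threshold, open points not past it and a bar at each list's median. Ligands lie far to the negative side around -2.56, nuclear partners and the destruction complex lie near 0, and the 6 genes repressed by Tcf7l1 lie between 0.62 and 1.36.

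Other target genes were divided between negative calls, as for Sp5, and no call. Of 12 with a row, 4 (33.3%) were called negative and 0 positive in the authors' deposited table, near the 30.5% of rows called in either direction and above the 15.9% called negative. The list's median log2 fold change was -0.42. T stood at -6.56 ± 0.79 (SE) in the authors' deposited table (adjusted p = 3.89e-15). Cdx2, a homeobox gene of trophectoderm and posterior mesoderm, stood at -5.82 ± 0.96 (SE) in the authors' deposited table (adjusted p = 2.11e-08). Nkd2, the relative of Nkd1, was at -1.28 ± 0.26 (SE) in the authors' deposited table (adjusted p = 1.11e-05). The fourth call was Mixl1, a streak gene, at -2.82 ± 0.62 (SE) in the authors' deposited table, on a mean normalized count of 41.0. T, Mixl1 and Cdx2 are also streak or trophectoderm markers and stand in both counts. Ccnd1 and Myc, often listed as targets, were at 0.38 (adjusted p = 0.204) and -0.12 (adjusted p = 0.817) in the authors' deposited table. Mixl1, Ccnd1 and Myc were chosen after their values were seen.

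Pluripotency genes that Tcf7l1 is known to repress were positive. All 6 were called positive in the authors' deposited table, where 14.6% of rows were so called. The list's median log2 fold change was 0.81. Nr0b1 had the largest value, at 1.36 ± 0.15 (SE) in the authors' deposited table (adjusted p = 8.4e-18). Esrrb, Nr5a2, Nanog, Klf2 and Tfcp2l1 stood at 0.91, 0.89, 0.73, 0.67 and 0.62 in the authors' deposited table, with SEs between 0.12 and 0.17. Tcf7l1 itself, at 0.17, did not pass. These genes serve as markers of the naive state as well, and the positive values of naive genes in this table were known when the list was made, so the count is not independent evidence.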

How the data were processed

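Polyadenylated RNA of 3 DsRed2+ and 3 DsRed2- samples was measured by sequencing. The submitters' processing notes name FastQC 0.12.1, Trimmomatic 0.39, STAR 2.7.11b, RSEM 1.3.3, DESeq2 1.45.3 and GRCm39, without their roles. The annotation, strand setting, filters, model formula and reference group are not given in the sources used here. Values come from the authors' comparison table. The mean normalized count is a signal pooled over libraries and deposited by the authors. Fold changes and standard errors are log2 values, per the file headers. The statistic deposited by the authors is a score, read as a Wald statistic because it equalled the fold change over its standard error within 5.77e-07. The p-value and adjusted p-value were used as deposited. The authors' up and down calls matched an adjusted p-value under 0.05 with an absolute log2 fold change over 0.5, with 0 exceptions in 17110 rows.

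A count table with 6 columns was not used, since its column names match no sample's labels, so the planned edgeR fits on counts were not run.

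Intervals are 95% Wald intervals from the deposited standard error, computed with SciPy 1.17.1 and pandas 2.3.3 in Python 3.11.15. Alternatives repeated the Wald test and the Benjamini-Hochberg adjustment over all rows, and these steps were tested on simulated data. Transcript lengths (16795 rows matched by gene ID) and overlaps came from GENCODE M21 (GRCm38), from which no coordinate is printed. By that annotation 7 of the 8 genes overlap another annotated gene and 6 overlap one on the other strand, so their values are uncertain to that extent. Sp5 overlaps none. The members were chosen by name and not by a measured value, whereas the lists were drawn up with earlier results of these data known. Named were all 8 genes with a row, the 3 genes in each direction with the largest absolute log2 fold change in each list (adjusted p-value under 0.05, mean normalized count of at least 50), all genes repressed by Tcf7l1, and the 2 markers with the largest absolute Wald statistic of each marker list.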

Additional observations from a re-analysis of the deposited data

How the results depend on the processing

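No paired analysis was possible because no count column could be tied to a replicate number and the comparison table has 1 value per gene. For the same reason other normalizations, count filters, DESeq2 in place of edgeR and fits without a replicate were not run. The positive count of the 8 genes, 1, was the same in all 8 alternatives. The negative count fell from 2 to 1 (Sp5) at an absolute log2 fold change over 1 or over 0.5, at an adjusted p-value under 0.01 and when tested against 0.5, and it stayed at 2 with a mean count of at least 50, a repeated adjustment and both centrings. The limit of 0.5 left 6 of 10 negative receptors, 1 of 5 in the destruction complex list and 1 of 2 negative nuclear partners, which the limit itself produces, and 0 positive nuclear partners (0 also at an unadjusted p-value under 0.05 with that limit). A mean count of at least 50 left 1 of 3 negative inhibitors, with fewer genes tested. Centring on the ribosomal protein genes gave 4 negative and 0 positive nuclear partners by the repeated Wald test (0 positive also at an unadjusted p-value under 0.05), which the shift itself produces. It turned Ctnnb1 to -0.062, without a call on either side. Over 43 single genes, 235 values under an alternative kept direction and side of the threshold, 21 lost their call and 1 reversed. Only the centrings change a fold change, so a direction could not reverse under the other settings. The repeated adjustment recomputes the deposited one. Much of the 235 was thus fixed in advance, and the number does not measure stability. The settings other than the centrings were applied to single genes after seeing the data. Depth per library was not read from the unused count columns, so no limits were set from it.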

Other observations

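Genes next to the canonical pathway were looked at after the results above were known, so the lists are descriptions. Glypicans are surface proteoglycans that bind Wnt proteins. Of 5 glypican genes with a row, all were negative and 4 were called so in the authors' deposited table. The share over all rows was 15.9%. Gpc1 stood at -1.20 ± 0.13 (SE) and Gpc4 at -1.01 ± 0.25 (SE) in the authors' deposited table (adjusted p-values 8.92e-20 and 0.000275). Gpc6 was at -2.47 on a mean normalized count of 24.6, Gpc3 at -0.39 and Gpc2, which did not pass, at -0.055 in the authors' deposited table.

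Beta-catenin also joins cadherins to the cell skeleton. Of 6 genes for these adhesion partners, 2 (33.3%) were called in the authors' deposited table, near the 30.5% over all rows. In the authors' deposited table Cdh2, the neural cadherin, was called negative at -2.03 ± 0.35 (SE), and Jup, the close relative of beta-catenin, was called positive at 0.41 ± 0.14 (SE). Cdh1, the epithelial cadherin, was at 0.11 ± 0.10 (SE) and Ctnna1 at 0.088 ± 0.084 (SE) in the authors' deposited table, neither past the threshold. Planar cell polarity genes, which take signals from Wnt5a-type ligands, showed 3 negative and 2 positive calls among 14 genes in the authors' deposited table (35.7%), also near that share. Their median was 0.055, and -0.038 after centring on the ribosomal protein genes. Prickle1 stood far apart at -4.62 ± 0.21 (SE) in the authors' deposited table (adjusted p = 1.14e-99), on a mean normalized count of 585.7, whereas Prickle2 and Prickle3 were at 0.25 and 0.34 without a call.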
